A study of Coprinopsis cinerea with 10 samples.

Results

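The genes of the ubiquitin and proteasome system were followed through fruiting of the mushroom Coprinopsis cinerea, as 89 of the 13320 genes on a custom NimbleGen array. They are the genes whose product name in the deposited files contains proteasome, ubiquitin, cullin, SUMO or F-box and does not name a ribosomal protein. That rule uses no measured value, though earlier results of these data were known when the genes were chosen. By their product names, 22 encode proteasome subunits, 42 encode ubiquitin enzymes and 9 encode F-box proteins. The proteasome genes comprise 12 of the 20S core, 8 of the 26S or regulatory particle and 2 with no stated position. The enzymes comprise 2 activating enzymes (E1), 15 conjugating enzymes (E2), 11 ligases (E3) and 14 deubiquitinases. The other 16 are 4 cullin genes, of which 1 encodes a cullin neddylation factor, 1 subunit of the SUMO-activating enzyme, and 11 genes for ubiquitin itself or for other ubiquitin-related factors.

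Total RNA of 5 stages was labelled with Cy3 and hybridised one sample per array, with 2 biological replicates per stage. The first stage was mycelium, the hyphae before fruiting. The others were initials of some 2 mm, primordia of stage 2 and some 1 cm, young fruiting bodies with a height near 2 cm, and the opened cap of mature fruiting bodies with a height near 4 cm. A mycelium replicate pooled 5 agar plates, and a replicate of any later stage pooled 4 to 5 structures. All samples came from 1 dikaryon, a strain with paired nuclei that can fruit, of 50% Okayama-7 origin, crossed back to that sequenced monokaryon for 5 generations and about 98.44% homologous to it. Mycelium grew at 37 °C for about 1 week, and fruiting was induced at 25 °C with 12 h of light and 12 h of dark. No light cycle is given for mycelium. In every comparison against mycelium, stage therefore cannot be told apart from temperature and light. The labels name the cap for the last stage only, so tissue and stage cannot be told apart there, and in whole tissue fewer cells of a type and less RNA per cell cannot be told apart.

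Cells mark proteins for destruction with chains of ubiquitin, a small protein that an E1 enzyme activates, an E2 enzyme carries and an E3 ligase attaches to the target. Cullins are the scaffolds of a large class of ligases, and in the SCF class an exchangeable F-box protein selects the target. The 26S proteasome then unfolds the marked protein with its regulatory particle and cuts it inside the barrel of its 20S core, whose outer rings are built of alpha subunits and whose inner, cutting rings are built of beta subunits. Deubiquitinases take ubiquitin off again, for reuse or to spare the protein. In C. cinerea the basidia of the cap pass through meiosis in near synchrony before the spores form, and the mature cap digests itself as the spores are shed.

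Values are intensities on a linear scale, as normalised by the authors. Median intensity ranged from 3268 to 3403 over the 10 arrays, which lay on 1 slide. The floor, taken as 4 times the random-sequence controls, ranged from 89.4 to 117. Replicates correlated at 0.997 to 0.999 across genes. The median difference between replicates was 1.09 to 1.29 times the difference expected from the 2 probe blocks in mycelium, initials and young fruiting bodies, against 2.53 times in primordia and 2.72 times in mature caps. A fit that counted each of the first 3 pairs as 1 sample was therefore run beside the main one, since p-values measure only the spread between these arrays. The summed intensity of the 2 fruiting body galectins was 39003 to 39220 in initials, against 19364 to 19409 in mycelium. Spo11 (CC1G_03320), which makes the DNA breaks that start meiotic recombination, read 74.4 and 75.7 in mycelium, 1024 and 920 in initials, 2691 and 2255 in primordia, 2900 and 3106 in young fruiting bodies, and 880 and 772 in mature caps. Of the 6 meiotic markers it was the only 1 under the floor in any stage, and that was in mycelium. Apart from Spo11 and Msh5 (CC1G_14981), the 6 were listed only for the word meiotic or meiotically in their product names. Those genes make up most of the summed intensity, so a sum of the 6 does not measure meiotic cells. The summed intensity of the 5 hydrophobins, coat proteins of hyphae, was 10950 to 24088 over the later stages, against 59312 to 61436 in mycelium. Of the 5, 4 were highest in mycelium. The exception, CC1G_13822, read 5112 and 4969 in mycelium, against 6098 and 5961 in young fruiting bodies.

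Of the 89 genes, 87 differed between stages by limma's F test at an adjusted p under 0.05, where 89.8% of all genes on the array did. Among genes above the floor in a stage, as all 89 were, 97.7% did. A high count was therefore general to the array. The groups differed from each other in the size and the shape of the change. The difference between the highest and the lowest stage mean had a median of 1.03 on the log2 scale for the proteasome genes, 0.38 for the ubiquitin enzymes and 0.83 for the F-box genes, with 0.94 for all genes. For all genes above the floor in a stage the median was 1.06, so the range of the proteasome genes was not wider than usual. Of the 22 proteasome genes, 19 had their highest mean in young fruiting bodies and 21 had their lowest in mature caps, where 18% and 32% of all genes had theirs. The enzymes had no such common stage, with 14 of 42 highest in young fruiting bodies and 13 highest in mature caps, where 34% of all genes were highest.

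**Figure D1:**
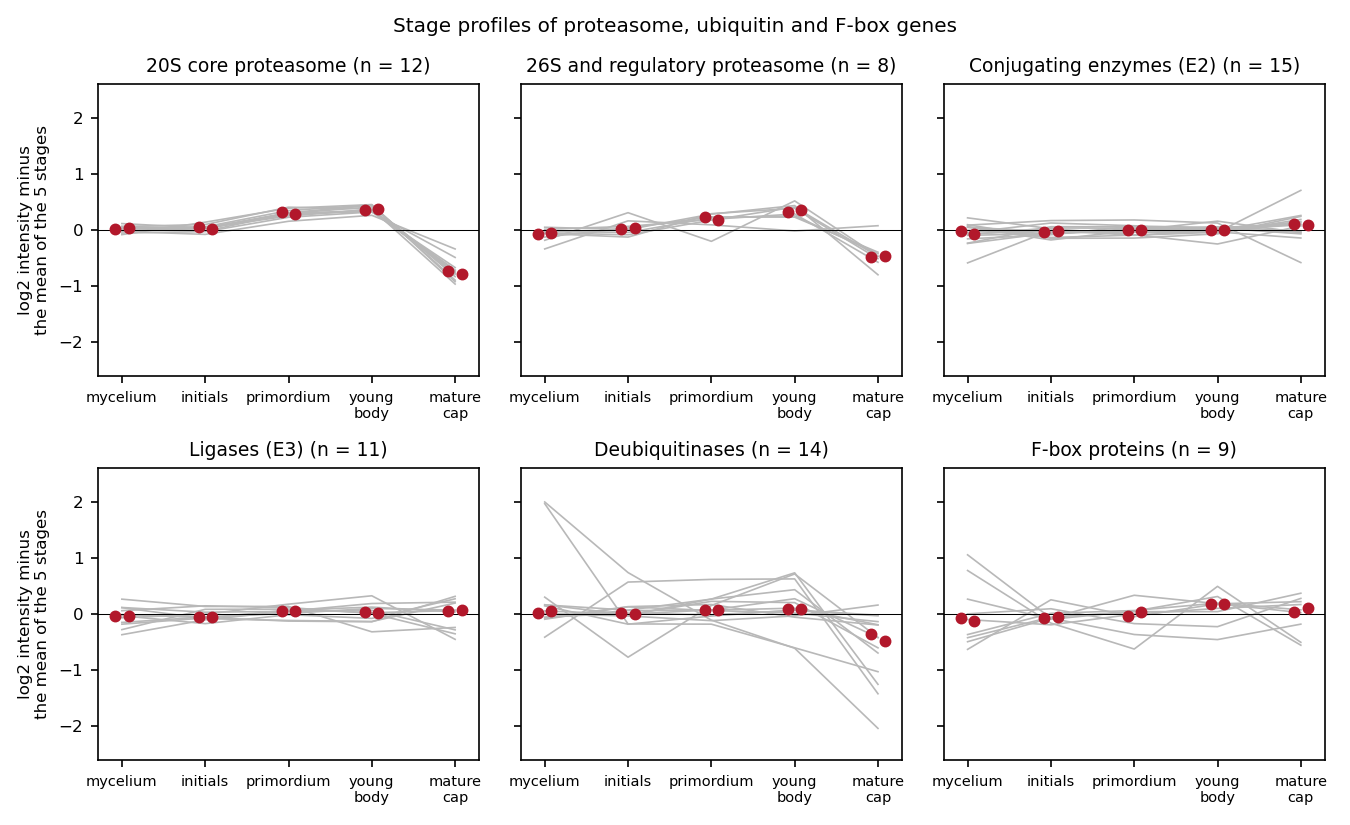
Stage profiles of 6 classes of genes. Grey lines are single genes (mean of 2 arrays), shown as log2 intensity minus the mean of the 5 stages. Red points are the median over the genes of a class on each array. The 12 core genes run together and drop in mature caps, the deubiquitinases and F-box genes spread widely, and the E2 and E3 medians stay near 0. The F-box medians run from -0.11 in mycelium to 0.19 in young fruiting bodies.

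The 20S core genes formed the tightest group. All 12 were higher in primordia than in initials and all 12 were lower in mature caps than in young fruiting bodies. CC1G_13712, which encodes the beta 3 subunit, read 5086 and 5109 in mycelium, 5952 and 5942 in initials, 7200 and 6936 in primordia, 7348 and 7438 in young fruiting bodies, and 2843 and 2857 in mature caps. Both caps lay below all 8 other arrays. Its change in mature caps against young fruiting bodies was -1.38 ± 0.03 on the log2 scale (SE, adjusted p = 2.73e-08), a fall of the largest size among the proteasome genes. The alpha 3 gene CC1G_01276 read 4203 and 4120 in mature caps, against 10468 and 10620 in young fruiting bodies, a log2 change of -1.34 ± 0.03. CC1G_11840, named for Pre1, which is a beta subunit of the yeast core, read 4027 and 3720 in mature caps, against 9631 and 9951 in young fruiting bodies. Its log2 change was also -1.34 ± 0.04. Neither gene's groups overlapped, which the choice of named genes required and which held for 11890 of the 13320 genes. At the other end, the gene named only 20S proteasome subunit (CC1G_14614) read 5648 and 5725 in mature caps, against 8394 and 8854 in young fruiting bodies, a log2 change of -0.60 ± 0.05.

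In mature caps against young fruiting bodies, 21 of the 22 proteasome genes fell and 1 rose, where 79% of all genes changed, 40.7% lower and 38.3% higher. The falls ran from -0.60 to -1.38 on the log2 scale, and 11 of them were at least 2-fold, as were 14.8% of all genes. The median change of the 22 was -1.03, against 0.02 for all genes, and that of the 12 core genes was -1.13. In mature caps against mycelium, which uses the same cap arrays, again 21 fell and 1 rose, where 80.7% of all genes changed, 40% lower and 40.7% higher. These changes were smaller, with a median of -0.74 against 0.03 for all genes, and only CC1G_11840 fell by 2-fold or more, at -1.03 ± 0.04, where 17% of all genes did. The summed galectin intensity was 6165 to 6725 in mature caps, against 27920 to 28112 in young fruiting bodies, and the sum of the 6 meiotic genes was 23254 to 23791 in mature caps, against 25928 to 25974 in young fruiting bodies. Within that sum 2 of the 6 rose and 3 fell, and Spo11 fell by 72.5%. The part of these tissue markers in the proteasome values was not tested. With mycelium, initials and young fruiting body pairs counted as 1 sample each, the same 21 genes passed against young fruiting bodies and all 22 against mycelium.

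The earlier steps were small in size. In initials against mycelium, 4 proteasome genes rose and 2 fell, where 71.1% of all genes changed, 37.5% higher and 33.7% lower, and the median change was within 0.01 of 0. In primordia against initials, 20 rose and 1 fell, where 48% of all genes changed, 23.5% higher and 24.5% lower. The 12 core genes rose by 0.21 to 0.32 on the log2 scale, a median of 0.27, with a median of 0.00 for all genes. Both primordium arrays of each core gene lay above both of its initials arrays, where 76.1% of all genes had stages that were apart. None of the 22 rose by 2-fold, where 2.23% of all genes did. The sum of the 6 meiotic genes was 26557 to 26926 in primordia, against 26318 to 26330 in initials. Of the 6, the 2 that rose were Spo11 and Msh5, and the 3 that fell were genes listed only for a word in their names. Spo11 read 2691 and 2255 in primordia, against 1024 and 920 in initials. The part of these markers in the rise was not tested. In young fruiting bodies against primordia, 6 rose and 1 fell, where 48.8% of all genes changed, 24% higher and 24.8% lower, and the median was 0.09.

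These early counts rest on the spread assumed between replicates. With the 3 close pairs counted as 1 sample each, 2 proteasome genes passed in initials against mycelium, 1 in primordia against initials and 1 in young fruiting bodies against primordia. The count of 7 in the last comparison also moved to 11 without primordium replicate 1, to 2 without primordium replicate 2, to 3 without young fruiting body replicate 1 and to 2 without young fruiting body replicate 2. The sizes of the changes are the same with pairs averaged. The stage order below was taken from the profile of these same genes, so its count is a description and not a test. Its step from primordia to young fruiting bodies passed as a rise for 6 of the 22 in the main fit. For 18 of the 22 proteasome genes, and 11 of the 12 core genes, the mean was highest in young fruiting bodies, next in primordia, lower in mycelium and initials and lowest in mature caps, an order that 6.3% of all genes had.

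**Figure D2:**
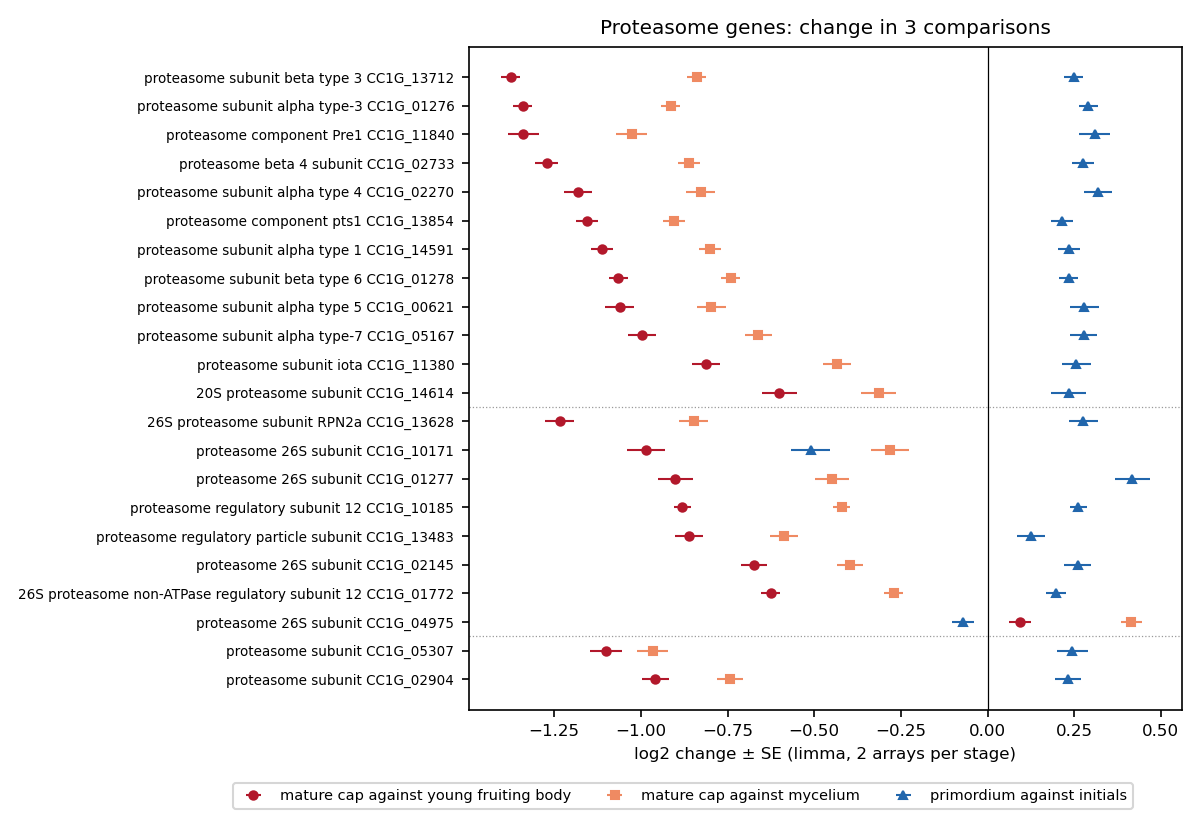
Log2 change of each of the 22 proteasome genes, with its SE, in mature caps against young fruiting bodies (circles), mature caps against mycelium (squares) and primordia against initials (triangles). Dotted lines part the 20S core, the 26S and regulatory genes and the 2 genes of no stated position. All but CC1G_04975 lie left of 0 in both cap comparisons, and CC1G_04975 and CC1G_10171 lie left of 0 in primordia against initials.

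The genes of the 26S or regulatory particle moved with the core in most cases, by smaller amounts. Of the 8, 7 fell and 1 rose in mature caps against young fruiting bodies, where 40.7% of all genes fell and 38.3% rose. The median over all 8 was -0.87, with 0.02 for all genes. RPN2a (CC1G_13628), a large scaffold subunit of the regulatory particle, read 5414 and 5603 in mature caps, against 12991 and 12925 in young fruiting bodies, a log2 change of -1.23 ± 0.04 and the only one of the 8 past 2-fold. CC1G_01772, named non-ATPase regulatory subunit 12, read 6996 and 6861 in mature caps, against 10618 and 10759 in young fruiting bodies, a log2 change of -0.63 ± 0.03. The groups of both genes were apart, as were those of 11890 of the 13320 genes. The 2 genes of no stated position, CC1G_05307 and CC1G_02904, changed by -1.10 ± 0.04 and -0.96 ± 0.04.

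A pair of 26S genes departed from the other 20. CC1G_04975 read 2708 and 2578 in mycelium, 3747 and 3730 in initials, 3592 and 3527 in primordia, 3314 and 3287 in young fruiting bodies, and 3527 and 3515 in mature caps. It was lowest in mycelium and showed no drop in the cap. Its log2 change was 0.50 ± 0.03 in initials against mycelium and 0.41 ± 0.03 in mature caps against mycelium (adjusted p = 1.16e-05). The rise of 0.09 ± 0.03 in mature caps against young fruiting bodies (adjusted p = 0.0266) no longer passed without any one of the 4 arrays of those stages, with an adjusted p of 0.0629 to 0.106. CC1G_10171 read 5328 and 5460 in mycelium, 7479 and 7698 in initials, 5151 and 5506 in primordia, 8357 and 9226 in young fruiting bodies, and 4393 and 4480 in mature caps. It alternated from step to step, with log2 changes of 0.49 ± 0.06, -0.51 ± 0.06, 0.72 ± 0.06 and -0.99 ± 0.06, all of which passed in the main fit and with close pairs counted as 1 sample each. As a description over the 10 arrays, which share 5 stages and 1 normalisation, each of the other 20 genes correlated at 0.944 or more with the median profile of the remaining proteasome genes. CC1G_10171 correlated at 0.68 and CC1G_04975 at -0.13.

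Ubiquitin itself is made from fused precursors, either chains of ubiquitin units or ubiquitin joined to a ribosomal protein. The genes so named did not move together, and since their coding sequences are nearly alike, their probes may share signal. CC1G_00876, named ubiquitin, read 11712 and 11955 in mycelium, 9937 and 9892 in initials, 12654 and 11918 in primordia, 14222 and 14594 in young fruiting bodies, and 7065 and 6615 in mature caps. Both caps were below every other array, and the log2 change against young fruiting bodies was -1.08 ± 0.04 (adjusted p = 6.11e-07). The ubiquitin-carboxy extension protein fusion (CC1G_10110) read 9957 and 9043 in mature caps, against 16351 and 16121 in young fruiting bodies, a log2 change of -0.77 ± 0.05. CC1G_11833, also named ubiquitin, read 17232 and 17023 in mature caps, against 14696 and 14876 in mycelium, a log2 change of 0.21 ± 0.03. Ubiquitin C (CC1G_03676), named like the polyubiquitin gene of mammals, read between 18105 and 18828 on all 10 arrays and passed in none of the 5 comparisons.

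CC1G_15381, named only ubiquitin family protein, had the largest changes of the ubiquitin genes. It read 886 and 904 in mycelium, 546 and 586 in initials, 2283 and 1878 in primordia, 3212 and 3157 in young fruiting bodies, and 444 and 375 in mature caps. Primordia and young fruiting bodies stood above the other 6 arrays. The log2 change was 1.87 ± 0.11 in primordia against initials (adjusted p = 4.71e-05) and -2.96 ± 0.11 in mature caps against young fruiting bodies (adjusted p = 3.8e-07), and both passed with close pairs counted as 1 sample each. The first was the only rise of 2-fold among the 89 genes at that step, which 2.23% of all genes matched. CC1G_01103, of the same family name, read 1992 and 2014 in mature caps, against 5007 and 5240 in mycelium, a log2 change of -1.35 ± 0.04.

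The first steps of the cascade changed less. Both E1 genes fell in mature caps against young fruiting bodies, where 40.7% of all genes fell and 38.3% rose. Their log2 changes were -0.64 ± 0.03 for CC1G_14580 and -0.25 ± 0.03 for CC1G_08478. The subunit of the enzyme that activates SUMO, a relative of ubiquitin (CC1G_02933), read 5371 and 5015 in mature caps, against 8156 and 8345 in young fruiting bodies, a log2 change of -0.67 ± 0.05. CC1G_01236, named ubiquitin-conjugating enzyme9, whose namesake in yeast and mammals carries SUMO, read 4537 and 4292 in mature caps, against 7259 and 7134 in young fruiting bodies. Its log2 change was -0.71 ± 0.03, so that both genes with a SUMO name or namesake were lower in mature caps. The arrays of neither gene overlapped, as was so for 11890 of the 13320 genes.

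The E2 genes as a class did not follow the proteasome genes in the cap. Of the 15, 8 rose and 5 fell in mature caps against young fruiting bodies, or 9 and 2 with each array centred on its median, with a median change of 0.09. The 13 that changed are close to the background, since 79% of all genes changed, 38.3% higher and 40.7% lower. None of the 15 had the stage order that most proteasome genes had. CC1G_12393 read 3024 and 3036 in mycelium, 4461 and 4587 in initials, 4331 and 4198 in primordia, 4346 and 4512 in young fruiting bodies, and 7320 and 7542 in mature caps. It stepped up at initials and again in the cap. Its log2 change was 0.75 ± 0.03 in mature caps against young fruiting bodies and 1.29 ± 0.03 in mature caps against mycelium (adjusted p = 5.08e-08). That was the only 2-fold rise in the comparison among the 89 genes, where 14.8% of all genes rose that far. The E2 gene CC1G_00319 rose by 0.50 ± 0.04 on the log2 scale in mature caps against mycelium. The non-canonical enzyme CC1G_03827, whose relatives work at the endoplasmic reticulum in yeast and mammals, read 8292 and 8314 in mature caps, against 6632 and 6659 in young fruiting bodies, a log2 change of 0.32 ± 0.03. CC1G_13726, named ubiquitinating enzyme with no class, rose by 0.31 ± 0.04 in the same comparison as CC1G_03827 and by 0.83 ± 0.04 in mature caps against mycelium.

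Of the 11 E3 ligase genes, 3 rose and 4 fell in mature caps against young fruiting bodies, where 38.3% of all genes rose and 40.7% fell. In mature caps against mycelium 7 rose and 4 fell, with a median of 0.22, where 40.7% of all genes rose and 40% fell. CC1G_02840 fell most in the first comparison and read 4340 and 4216 in mature caps, against 7376 and 7286 in young fruiting bodies, a log2 change of -0.78 ± 0.03. CC1G_07156 rose most and read 9415 and 9570 in mature caps, against 6891 and 6969 in young fruiting bodies, a log2 change of 0.45 ± 0.02. CC1G_08719 read 8951 and 9190 in mature caps, against 7095 and 7142 in young fruiting bodies, a log2 change of 0.35 ± 0.04. None of these genes' groups overlapped, as was so for 11890 of the 13320 genes in that comparison. CC1G_01055 was highest late, at 12482 and 12668 in mature caps and 12571 and 12154 in young fruiting bodies, with 8464 and 8348 in mycelium. Its log2 change was 0.58 ± 0.03 in mature caps against mycelium, and its 2 latest stages overlapped.

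Among the 42 enzymes together, 12 rose and 24 fell in mature caps against young fruiting bodies, and the median was -0.09, where 79% of all genes changed. Centred on each array's median, 13 rose and 17 fell, so the excess of falls depends on the scaling in part. Against mycelium, 16 rose and 22 fell, where 80.7% of all genes changed. In initials against mycelium 14 rose and 15 fell, where 71.1% of all genes changed. In primordia against initials 11 rose and 2 fell, or 11 and 6 after centring, where 48% of all genes changed. In young fruiting bodies against primordia 11 rose and 7 fell, where 48.8% of all genes changed. With the close pairs counted as 1 sample each, 11, 2 and 2 enzymes passed in these 3 early comparisons, and 10 passed in the last one without young fruiting body replicate 1.

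**Figure D3:**
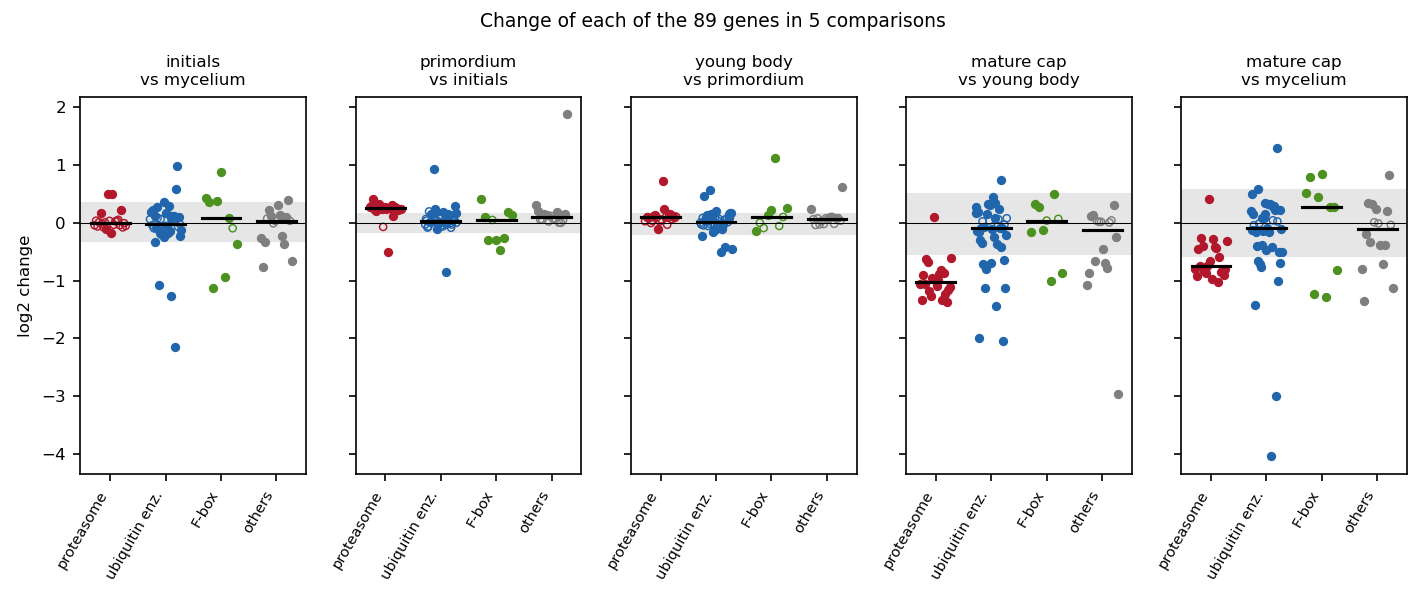
Log2 change of each of the 89 genes in the 5 comparisons, by group. Filled points passed at an adjusted p under 0.05 and open points did not. The black bar is the median of a group, and the grey band spans the lower to the upper quartile of all 13320 genes. Nearly all proteasome points lie below the band in mature caps against young fruiting bodies, while the other groups spread to both sides.

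Of the 4 cullin genes, which encode the ligase scaffolds or act on them, 2 rose, 1 fell and 1 did not pass in mature caps against young fruiting bodies, where 79% of all genes changed. Cullin-1 (CC1G_03473), the scaffold of the SCF ligases, read 6105 and 6115 in mycelium, 6626 and 6702 in initials, 7339 and 7381 in primordia, 7575 and 7476 in young fruiting bodies, and 7673 and 7711 in mature caps. Each later stage was above mycelium, and the log2 change in mature caps against mycelium was 0.33 ± 0.02. Cullin-4B (CC1G_02887) changed by 0.34 ± 0.03 in the same comparison. The gene named SCF complex subunit Cullin (CC1G_14444) fell by 0.25 ± 0.04 on the log2 scale in mature caps against young fruiting bodies. The neddylation factor CC1G_01610, whose yeast relative Dcn1 helps to attach NEDD8 to cullins, read 5209 and 5096 in initials, against 6403 and 6495 in mycelium, a log2 change of -0.32 ± 0.03.

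F-box genes changed one by one, with no common profile. Of the 9, 6 rose and 3 fell in mature caps against mycelium, where 80.7% of all genes changed, and 5 rose and 3 fell in initials against mycelium, where 71.1% did. Mature caps against young fruiting bodies gave 3 rises and 4 falls, or 4 and 2 with each array centred on its median, where 79% of all genes changed. The step from initials to primordia gave 4 rises and 4 falls, where 48% of all genes changed. Of these none passed with the close pairs counted as 1 sample each, and 5 in all passed without either initials replicate. Young fruiting bodies against primordia gave 4 rises and 1 fall, where 48.8% of all genes changed. That count of 5 became 2 without young fruiting body replicate 1 and 3 without any one of the other mycelium, initials, primordium or young fruiting body arrays. CC1G_04375 read 2146 and 2086 in mycelium, 1083 and 1126 in initials, 803 and 800 in primordia, 1689 and 1791 in young fruiting bodies, and 945 and 803 in mature caps. It was high in mycelium and young fruiting bodies and low in the other 3 stages. Its rise of 1.12 ± 0.07 on the log2 scale in young fruiting bodies against primordia (adjusted p = 6.81e-05) was the only one past 2-fold among the 89 genes at that step, where 2.58% of all genes rose that far, and it passed in every setting tried.

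CC1G_03943, an F-box protein with WD repeats, read 6867 and 6917 in initials, against 3685 and 3781 in mycelium, a log2 change of 0.88 ± 0.07. The gene named for pof6 of fission yeast (CC1G_12117) read 3043 and 2963 in mature caps, against 5620 and 5347 in young fruiting bodies, a log2 change of -0.87 ± 0.03, while CC1G_04375 fell by 49.9% at that step. CC1G_06616, a further F-box gene, rose by 0.50 ± 0.03 in that comparison. The groups of each of these genes were apart, as the choice of named genes required.

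The files name 3 genes after grrA, an F-box protein that Aspergillus nidulans needs to form ascospores, and a pair of them are neighbours on the RefSeq assembly. CC1G_01383 read 7404 and 7376 in mycelium, 9567 and 9496 in initials, 10234 and 10163 in primordia, 10222 and 10183 in young fruiting bodies, and 12906 and 12714 in mature caps. Its neighbour CC1G_01384 read 6065 and 5854 in mycelium, 2727 and 2714 in initials, 2199 and 2250 in primordia, 2023 and 2157 in young fruiting bodies, and 2493 and 2565 in mature caps. In every later stage CC1G_01383 was above mycelium and CC1G_01384 below it, while in mature caps against young fruiting bodies both rose, by 0.33 ± 0.02 and 0.28 ± 0.04 on the log2 scale. Their log2 changes in initials against mycelium were 0.37 ± 0.02 for CC1G_01383 and -1.13 ± 0.04 for CC1G_01384, and in mature caps against mycelium they were 0.79 ± 0.02 and -1.24 ± 0.04. CC1G_01365, the other gene of that name, rose by 0.52 ± 0.05 in mature caps against mycelium.

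Most deubiquitinases were lower in the cap. Of the 14, 13 fell and 1 rose in mature caps against young fruiting bodies, with a median of -0.56, where 40.7% of all genes fell and 38.3% rose. Of the falls 5 were at least 2-fold, as were 14.8% of all genes. Against mycelium 11 fell and 1 rose, with a median of -0.58, where 40% of all genes fell and 40.7% rose. With each array centred on its median, 10 fell and 1 rose in each of these comparisons. CC1G_13880, named for protease 48, read 2027 and 1844 in mycelium, 3685 and 3963 in initials, 3727 and 4185 in primordia, 3895 and 4054 in young fruiting bodies, and 952 and 969 in mature caps. It held a plateau over 3 stages, above mycelium and well above the cap. The log2 changes were 0.98 ± 0.07 in initials against mycelium and -2.05 ± 0.07 in mature caps against young fruiting bodies (adjusted p = 3.03e-07).

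CC1G_01998, named for hydrolase L3, which in mammals acts on small ubiquitin adducts, read 3828 and 3952 in mycelium, 1862 and 1839 in initials, 3818 and 3224 in primordia, 5200 and 5162 in young fruiting bodies, and 2496 and 2233 in mature caps. Initials and mature caps were its low stages. It changed by -1.07 ± 0.08, 0.92 ± 0.08, 0.56 ± 0.08 and -1.13 ± 0.08 on the log2 scale over the 4 steps. All 4 passed in the main fit, and the third had an adjusted p of 0.0777 with close pairs counted as 1 sample each.

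The 3 genes named hydrolase 5, after an enzyme that in mammals takes apart free ubiquitin chains, had 3 different profiles. CC1G_10183 read 5450 and 5793 in mycelium, 2293 and 2402 in initials, 1233 and 1378 in primordia, 895 and 948 in young fruiting bodies, and 348 and 336 in mature caps. It fell at every step, and its log2 change in mature caps against mycelium was -4.04 ± 0.06 (adjusted p = 6.45e-09), the widest change of any of the 89 genes. CC1G_00766 read 556 and 687 in mature caps, against 2422 and 2487 in young fruiting bodies, a log2 change of -1.99 ± 0.10. CC1G_12961 read between 10624 and 11825 on all arrays, and its only change that passed was -0.10 ± 0.03 in mature caps against young fruiting bodies (adjusted p = 0.0337).

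CC1G_12332, named ubiquitin C-terminal hydrolase, was far higher in mycelium than in any later stage. It read 610 and 605 in mycelium, 142 and 133 in initials, 144 and 130 in primordia, 97.0 and 108 in young fruiting bodies, and 85.7 and 67.6 in mature caps, where both arrays were under the floor. Its log2 change was -2.14 ± 0.12 in initials against mycelium (adjusted p = 4.02e-06), and in mature caps it was at least 5.60-fold lower than in mycelium. It was the only one of the 89 genes under the floor in any stage. CC1G_15273, named hydrolase 6, read 3545 and 3255 in mature caps, against 7301 and 7567 in young fruiting bodies, a log2 change of -1.13 ± 0.05. Its stage order, with 4 other deubiquitinases, was that of the proteasome genes.

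**Figure D4:**
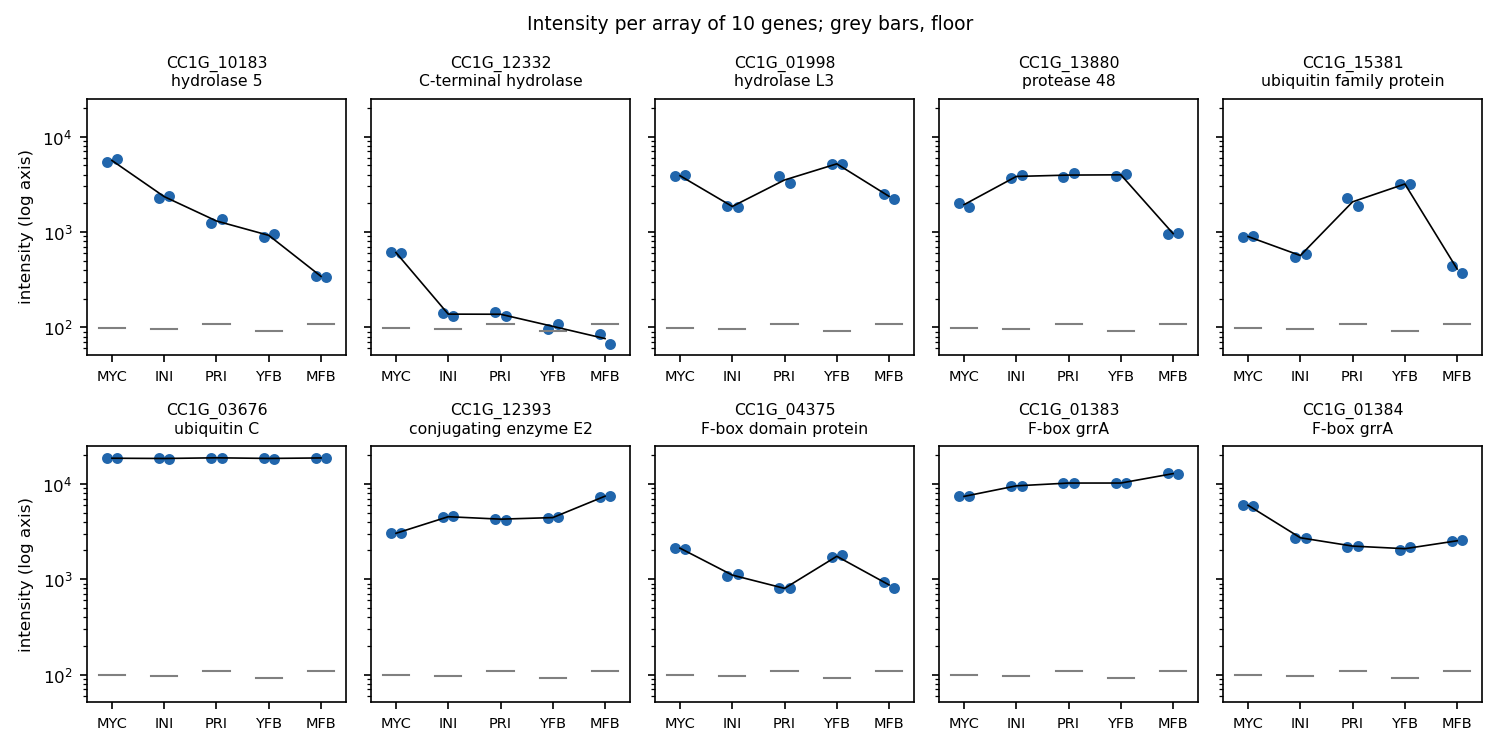
Intensity of 10 genes on each array, on a log axis, with the line through the geometric mean of the 2 arrays of a stage and the mean floor of the stage as a grey bar. MYC is mycelium, INI initials, PRI primordium, YFB young fruiting body and MFB mature cap. CC1G_10183 falls at every step, CC1G_12332 reaches the floor, CC1G_03676 is level, and in the later stages CC1G_01383 lies above and its neighbour CC1G_01384 below its mycelium level.

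Other genes of the pathway that the product words do not reach were read from a list of 13, with the COP9 signalosome, the anaphase promoting complex, the NEDD8-activating enzyme, Rbx1 and RING finger proteins. Of the 13, 8 fell and 1 rose in mature caps against young fruiting bodies, with a median of -0.20, where 79% of all genes changed. In mature caps against mycelium 5 fell and 3 rose, where 80.7% of all genes changed. With each array centred on its median, 7 fell and 3 rose in the first of these and 3 fell and 3 rose in the second. COP9 subunit 6 (CC1G_04382), of the complex that takes NEDD8 off cullins, read 5313 and 5776 in mature caps, against 10163 and 10615 in young fruiting bodies, a log2 change of -0.91 ± 0.05. A RING finger gene (CC1G_04341) read 1817 and 1869 in mature caps, against 7341 and 7468 in young fruiting bodies, a log2 change of -2.01 ± 0.03 and the only fall of the 13 past 2-fold there. In initials against mycelium 7 rose and 3 fell, where 71.1% of all genes changed. The RING finger gene CC1G_03968 read 7321 and 6947 in initials, against 3116 and 3209 in mycelium, a log2 change of 1.17 ± 0.08. Its groups did not overlap, as was so for 11377 of the 13320 genes.

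Set side by side, the groups differed in how far their genes shared a profile. The pairwise correlation over the 10 arrays, given as a description, had a median of 0.97 among the proteasome genes, 0.99 among the core genes, 0.42 among the deubiquitinases, -0.05 among the E2 genes, -0.09 among the E3 genes and -0.17 among the F-box genes, with 0.00 among all genes. Over all 89 genes, 19 rose and 57 fell in mature caps against young fruiting bodies, with a median of -0.25, where 38.3% of all genes rose and 40.7% fell. Against mycelium 28 rose and 54 fell, with a median of -0.27, where 40.7% of all genes rose and 40% fell. In primordia against initials 42 rose and 7 fell, of which 20 and 1 were proteasome genes, where 23.5% of all genes rose and 24.5% fell. In initials against mycelium 29 rose and 26 fell, close to even, as for all genes, where 37.5% rose and 33.7% fell. In young fruiting bodies against primordia 25 rose and 9 fell, where 24% of all genes rose and 24.8% fell. That count of 34 was 19 without primordium replicate 2, 17 without young fruiting body replicate 1 and 19 without young fruiting body replicate 2.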

How the data were processed

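The authors deposited linear intensity values from RMA (robust multi-array averaging), per the file headers and names, as 1 value per gene and block of 5 probes, with 2 blocks per array. Its software and settings are not given in the sources used here. A series-wide table of deposited intensities held the geometric mean of the 2 blocks. The other deposited column used, the number of probes per block, was 5 for all 89 genes. The log2 values of both blocks were averaged, without further normalization, pseudocount or filter, from the deposited intensities. Stages were compared in R 4.3.3 with limma 3.58.1 (lmFit, eBayes) in 1 fit of all 10 arrays with stage as the only term (5 residual degrees of freedom), and genes passed at a Benjamini-Hochberg adjusted p under 0.05 over all 13320 genes. The fit was tested on simulated data in which few genes changed and the noise of the arrays was independent. Far more genes passed in the real data, so that test does not vouch for the counts. SE is that of the fit. The number of arrays limits the precision.

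The floor of an array was 4 times its control of 7613 random-sequence probes. A stage counts as under it when neither array passed it, and a fold against such a stage is a bound. All 89 locus tags matched RefSeq assembly CC3, used only for which genes are neighbours. Replicate numbers were not used as a block in the main fit, since the labels state no pairing. The deviations of same-numbered arrays from their stage means correlated at -0.02 to 0.50, with 2 of 10 pairs of stages under 0.1. The highest was 0.50 between mycelium and initials, so same-numbered arrays deviated together in part. The genes and lists were chosen with earlier results of these data known. Named genes are, per comparison and group, the 3 largest rises and 3 largest falls that passed with arrays apart and above the floor, per class the 3 with the widest and the 2 with the narrowest range, and every E1, cullin, SUMO and ubiquitin gene, though not all are described singly. Neighbouring genes in the closing section were chosen after their values were seen. Alternatives were other scalings, single probe blocks, the deposited table, a filter on dim genes, a trended robust fit, a replicate block, fits of 2 stages, close pairs counted as 1 sample, and each array left out. Probes of close paralogs can share signal. Some genes of the list of meiotic markers are not reported here and were left out of its sums.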

Additional observations from a re-analysis of the deposited data

How the results depend on the processing

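None of the 102 single-gene changes tested changed sign under any of the 20 alternatives. The 21 counts below take rises and falls together, and the balance of F-box genes in mature caps against young fruiting bodies turned with centring on the median, at 4 rises and 2 falls in place of 3 and 4. With 3 replicate pairs (mycelium, initials, young fruiting bodies) each averaged to 1 sample, 11 of the 21 counts moved by over 1.5 times. In initials against mycelium the count became 2 for proteasome genes, 11 for ubiquitin enzymes and 25 for all members, in place of 6, 29 and 55. In primordia against initials it became 1 for proteasome genes, 2 for ubiquitin enzymes, 0 for F-box genes and 4 for all members, in place of 21, 13, 8 and 49. In young fruiting bodies against primordia it became 1 for proteasome genes, 2 for ubiquitin enzymes, 1 for F-box genes and 4 for all members, in place of 7, 18, 5 and 34. This fit has fewer samples by construction. In that last comparison a trended robust fit gave 13 proteasome genes, the arrays of the 2 stages alone gave 2 proteasome genes, 3 F-box genes and 19 of all members, and probe block 1 or 2 alone gave 2 or 3 F-box genes. The cause was not tested. No count moved by over 1.5 times with quantile normalization, centring on the median, the dim-gene filter, the deposited table or a replicate block. The last 3 changed none of the 102 single-gene calls, while CC1G_01365 in mature caps against young fruiting bodies no longer passed with quantile normalization (adjusted p = 0.163) or centring (adjusted p = 0.067). By the check in the processing section, same-numbered arrays of most stages deviated together in part. The replicate block gave 22 proteasome genes in mature caps against young fruiting bodies.

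Leaving out 1 array at a time gave 4 to 7 proteasome genes in initials against mycelium, 19 to 21 in primordia against initials, 2 to 11 in young fruiting bodies against primordia, 21 to 22 in mature caps against young fruiting bodies and 22 against mycelium. Ubiquitin enzymes gave 21 to 31, 9 to 14, 10 to 19, 29 to 34 and 34 to 38 in these comparisons. F-box genes gave 7 to 8, 5 to 8, 2 to 5, 5 to 7 and 9, and all members 44 to 57, 38 to 51, 17 to 37, 65 to 74 and 78 to 82, with 84 to 87 by the F test. Of the single-gene calls, 36 were lost with averaged pairs, 11 with the arrays of 2 stages alone, 8 and 4 with probe block 1 or 2 alone, 1 with the trended robust fit, and 1 to 10 without any one array. Signal limited only CC1G_12332, the 1 gene that reached the floor.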

Other observations

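Ubiquitin C (CC1G_03676) had the narrowest range of stage means of all 13320 genes, 0.02 on the log2 scale or 1.60%, and it was singled out after its values were seen. Its mean intensity was above that of 99.76% of genes, with 31 genes brighter. The 82 genes within 0.25 log2 units of its mean had a median range of 0.33. Whether its probes were near saturation, or pooled the signal of several ubiquitin genes, was not tested.

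Several of the 89 genes are neighbours on the RefSeq assembly. CC1G_01276 (alpha 3), CC1G_01277 (26S subunit) and CC1G_01278 (beta 6) follow each other with 0 genes between them, and their log2 changes in mature caps against young fruiting bodies were -1.34 ± 0.03, -0.90 ± 0.05 and -1.06 ± 0.03. The regulatory gene CC1G_13483 and the alternating 26S gene CC1G_10171 are also adjacent, yet in primordia against initials they changed by 0.13 ± 0.04 and -0.51 ± 0.06. The deubiquitinase CC1G_10183, which fell at every step, lies 2 genes from the regulatory subunit CC1G_10185, which rose by 0.26 ± 0.02 in primordia against initials. The E2 genes CC1G_11200 and CC1G_11202, with 1 gene between them, rose by 0.26 ± 0.04 and 0.28 ± 0.02 in mature caps against mycelium.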
